A study of Mus musculus with 4 samples.

Results

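The 10 genes described here are markers by which splenic B cells are sorted into marginal zone, follicular and maturing subsets: Cr2, Fcer2a, Cd1d1, Cd9, Cd93, Spn, Ptprc, Dtx1, Notch2 and Vpreb3. They were taken by name from the 41342 named genes of the count table, and for Ptprc and Cr2 the single transcripts were taken from the transcript tables as well. RNA was measured in CD43-depleted splenic B cells of homozygous ΔleftPAL mice, whose IgH 3' regulatory region has lost hs3a, the IRIS sequence and hs1,2, and of homozygous ΔIRIS mice, in which the same stretch was removed but hs1,2 and an inverted hs3a were put back, so that all enhancers remain. Both lines descend from E14 embryonic stem cells and are labelled as strain 129, and both carry the deletion of the intervening repeats, so no group has an unmodified locus (wt libraries are not analysed here). Each genotype had 1 library of freshly purified, resting cells and 1 of cells kept for 48 h in medium with LPS at 5 μg per ml (lipopolysaccharide, a bacterial product that activates B cells). The sources describe the animals differently: the labels give a pool of cells of 4 animals, the methods 2 pooled RNAs per genotype, and a legend 3 male mice per genotype in 2 experiments, aged 8 to 12 weeks. No culture without LPS was analysed here, so the action of LPS, the culture itself and the gradient run after it cannot be told apart.

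Mature B cells of the spleen fall mainly into follicular cells, which recirculate and carry much CD23, and marginal zone cells, which stay at the border of the white pulp, carry much CD21 and CD1d and respond quickly to blood-borne antigens. Entry into the marginal zone fate depends on the receptor Notch2, which, once bound by its ligand on stromal cells, is cleaved so that its intracellular part joins the DNA-binding protein RBPJ and switches on target genes. Cells newly arrived from the bone marrow pass through transitional stages marked by the AA4.1 antigen. LPS drives B cells of either kind through Toll-like receptor 4 into division and towards antibody-secreting cells. The comparison therefore asks how far the RNA of the subset markers differs between the 2 deletions, and how far it is kept in activated cells. The question bears on the B-cell fate in the mutant mice, which in the study was followed by staining for CD21, CD23 and AA4.1. That staining compared cells using the mutant or the wt allele within heterozygous mice, and the paper reported similar subset percentages. The RNA described here is from homozygous mice, so the results are not of like animals or measures.

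The libraries held 23615496 to 29776108 counts in named genes, and 3 counts, the smallest number read as detection, correspond to 0.102 to 0.123 CPM (counts scaled to a common library size with edgeR's TMM factors). Each group is 1 library, so no difference has a replicate check and no p-value is given; the intervals are exact 95% Clopper-Pearson intervals of the read ratio and cover counting error only. A gene was called when its CPM plus 0.5 differed at least 2-fold, among the 11286 genes whose counts averaged 50 or more, and all 10 markers passed that minimum. The 6 B cell genes checked (Cd79a, Cd79b, Ms4a1, Pax5, Cd22 and Cd74) summed to 8074 CPM in resting ΔleftPAL cells, 3606 in LPS ΔleftPAL cells, 7142 in resting ΔIRIS cells and 3449 in LPS ΔIRIS cells, so B cell genes were abundant in every library and took a smaller share after LPS. Transcripts of other cells were present mostly at rest: 7 myeloid genes summed to 311 and 417 CPM in the resting and to 7.31 and 16.5 CPM in the LPS libraries of ΔleftPAL and ΔIRIS, and 6 erythroid genes to 41310 and 28660 CPM against 58.2 and 124 CPM. Itgam made up 450 of the 483 myeloid reads in LPS ΔIRIS cells, where it was higher than at rest, at 15.4 against 10.5 CPM. In such bulk RNA, fewer cells of a type and less RNA per cell cannot be told apart.

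Per unit of transcript length, Ptprc and Cr2 were the most abundant of the markers. In resting ΔleftPAL cells the levels ran from 559 TPM (the length-corrected unit of kallisto) for Ptprc and 477 for Cr2 through 159 for Fcer2a, 89.3 for Vpreb3, 76.5 for Cd1d1, 75.3 for Dtx1, 52.4 for Notch2 and 26.4 for Cd9 to 8.60 for Spn and 4.75 for Cd93. The order in resting ΔIRIS cells was alike, with Cr2 at 288 TPM and Fcer2a at 168 TPM. In LPS ΔIRIS cells Ptprc remained first at 237 TPM, Cr2 was at 37.2 and Fcer2a at 27.2 TPM, and Cd1d1 was last at 3.98 TPM. Ptprc, Cr2 and Fcer2a held the first 3 ranks in each of the 4 libraries, while Cd1d1 went from rank 5 and 7 at rest to rank 9 and 10 after LPS. Without replicates the spread of a TPM value is unknown, and neighbours such as Cd1d1 and Dtx1 in resting ΔleftPAL cells are not separated.

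**Figure D1:**
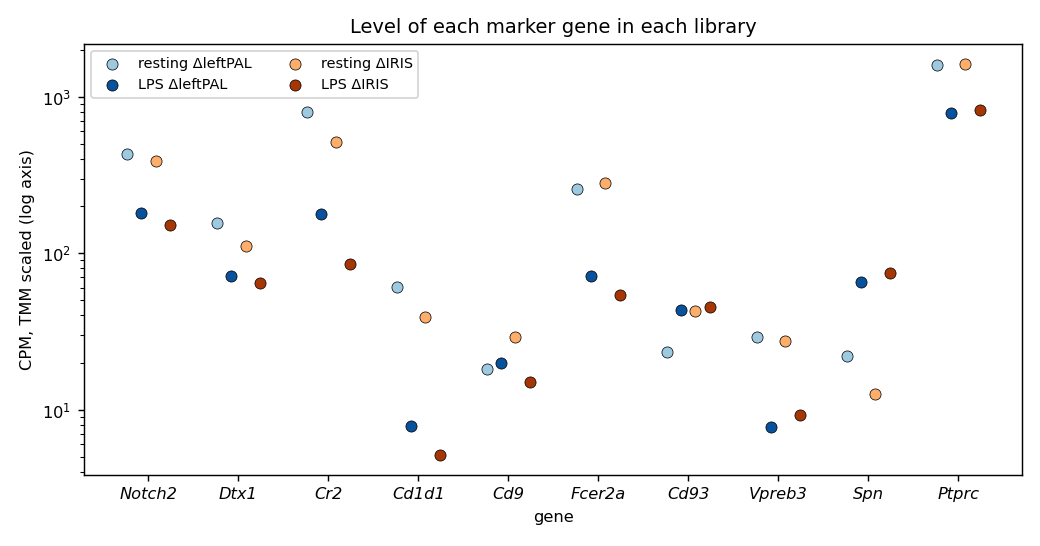
CPM of the 10 marker genes (vertical log axis) in each of the 4 libraries (points, 1 per library, no error available). Both LPS libraries lie below both resting libraries for Notch2, Dtx1, Cr2, Cd1d1, Fcer2a, Vpreb3 and Ptprc and above them for Spn and, by a small margin over resting ΔIRIS, for Cd93, while Cd9 is not separated by LPS.

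Across the list, LPS cultures held less of most markers. In ΔleftPAL cells 7 of the 10 markers fell at least 2-fold and 1 rose, against 15.5% and 20.1% of all genes tested. In ΔIRIS cells 5 fell and 1 rose, against 17.3% and 21.6% of all genes. Counted in both genotypes together, 5 fell and 1 rose, against 13.1% and 17.3% of all genes. The median log2 ratio of the markers was -1.18 in either genotype, and that of all genes was 0.12 and 0.13. The counts describe these libraries, and the median of the 6 B cell genes also lay below that of all genes, at -0.98 and -0.60. When the libraries were scaled by the reads of 5 of those B cell genes instead, 4 markers fell and 2 rose in ΔleftPAL cells, against 7.37% and 44.2% of all genes so scaled, and 4 fell and 1 rose in ΔIRIS cells, against 11.8% and 32.3%; this scaling was chosen after seeing the data. The 4 that fell under it in both genotypes were Cr2, Fcer2a, Cd1d1 and Vpreb3.

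**Figure D2:**
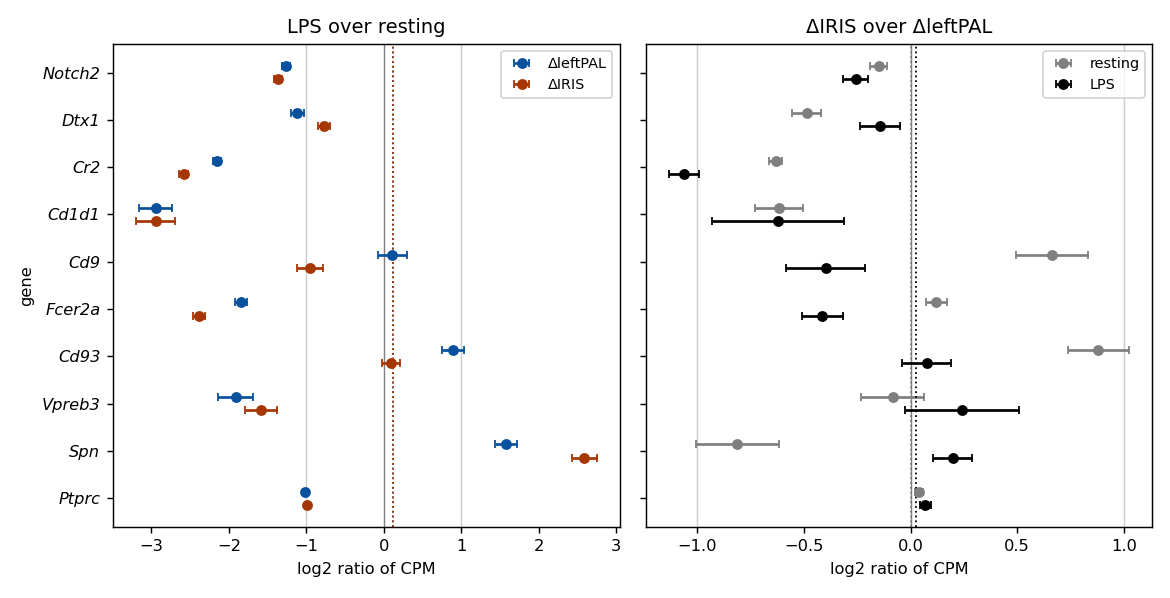
Log2 ratios of CPM for the 10 markers, LPS over resting on the left and ΔIRIS over ΔleftPAL on the right (points, with 95% intervals that cover counting error only). Dotted lines mark the median of all genes and grey lines a 2-fold difference; after LPS most markers lie between -0.77 and -2.94, with Spn at 1.58 and 2.59.

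Notch2, the receptor that directs cells to the marginal zone (chr3:98013538-98150367 of the mm10 assembly, plus strand), fell in both genotypes. It was counted at 10577 reads or 433 CPM in resting ΔleftPAL cells and 4876 reads or 181 CPM after LPS, and at 11342 reads or 390 CPM in resting ΔIRIS cells and 4439 reads or 151 CPM after LPS. The log2 ratio, LPS over resting, came to -1.26 (interval -1.31 to -1.21) in ΔleftPAL and -1.37 (-1.42 to -1.32) in ΔIRIS cells. With the B cell gene scaling these ratios were -0.50 and -0.98, short of 2-fold, so the call of Notch2 depends on what the libraries are scaled to. Dtx1, which encodes Deltex 1, a ubiquitin ligase that is switched on by Notch and acts on the pathway in turn (chr5:120680202-120711927, minus strand), had 155, 71.8, 111 and 64.9 CPM in resting ΔleftPAL, LPS ΔleftPAL, resting ΔIRIS and LPS ΔIRIS cells. Its ratio was -1.12 (-1.19 to -1.04) in ΔleftPAL cells, where it fell, and -0.77 (-0.85 to -0.69) in ΔIRIS cells, where it did not reach 2-fold. The ΔleftPAL value was -0.997 with kallisto estimated counts and -0.35 with the B cell gene scaling, while the ΔIRIS value was -1.15 by TPM.

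The other genes of the pathway did not move as one. Of 4 receptors 2 passed the count minimum, and they went opposite ways: Notch1, the receptor best known from T-cell development, rose from 641 to 1627 reads in ΔleftPAL cells (log2 ratio 1.20, 1.07 to 1.34) and from 717 to 1568 reads in ΔIRIS cells (1.12, 0.99 to 1.25), whereas Notch2 fell. Of 14 genes for the processing of the receptors, all past the minimum, 2 fell in both genotypes, a share near the 13.1% of all genes that did, namely Lfng, a glycosyltransferase that tunes ligand binding (log2 ratio -2.18 and -1.79), and Aph1b, a subunit of the protease that frees the intracellular part (-1.55 and -1.38). The sheddases Adam10 and Adam17 stayed within 2-fold. Of 7 nuclear factors and inhibitors only Maml2, a coactivator of the Notch complex, fell in both (-1.12 and -1.07), again near the share of all genes, and Rbpj itself had log2 ratios of 0.20 and -0.23. Of 7 target genes 6 passed and 3 fell in both genotypes. These were Hes1, a transcriptional repressor, from 805 to 63 and from 1105 to 70 reads (-3.82, -4.21 to -3.45, and -3.99, -4.36 to -3.64), and the markers Cr2 and Fcer2a. The remaining targets that passed did not fall in both. Nrarp (-0.17 and -0.012, with 49 to 55 reads per library) and Hes5 (-0.38 and 0.45) stayed within 2-fold, and Dtx1 was called in ΔleftPAL cells only. The only ligand past the minimum, Dll1, was counted at 96, 34, 67 and 20 reads in the order given for Dtx1 and fell in both genotypes.

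**Figure D3:**
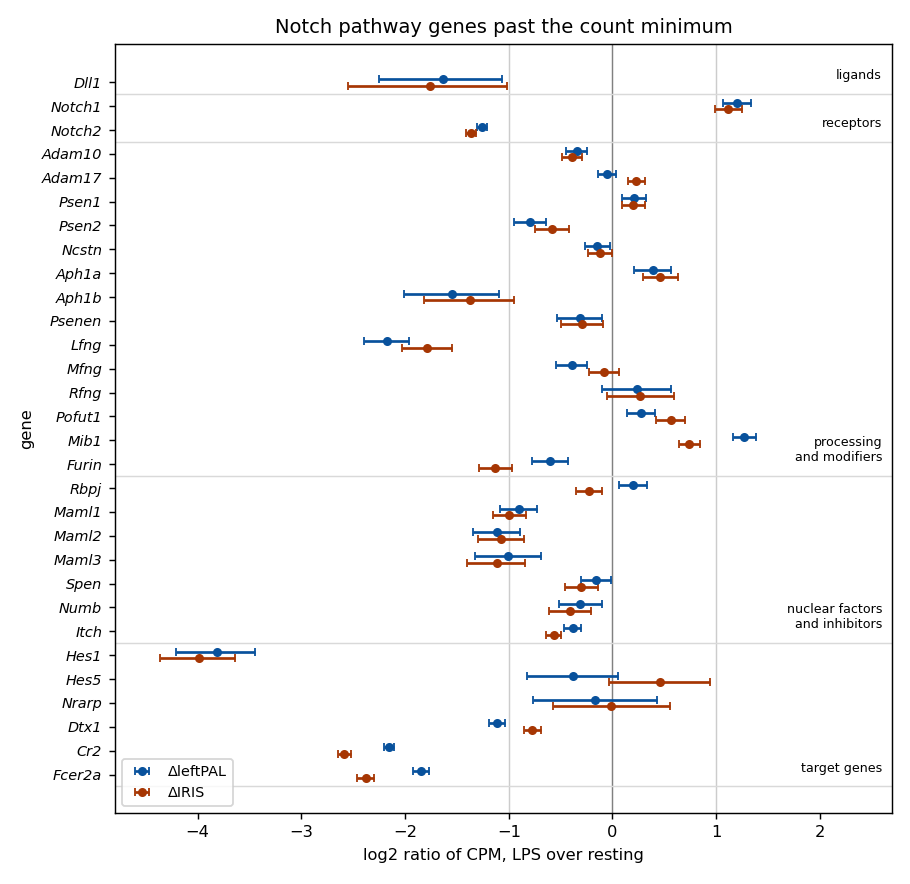
Log2 ratio of CPM, LPS over resting (horizontal axis), of the Notch pathway genes past the count minimum, grouped by role, in ΔleftPAL and ΔIRIS cells (points, with 95% intervals for counting error only). Notch1 is right of the 2-fold line and Notch2 left of it, and Hes1 is farthest left at -3.82 and -3.99.

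Because 2 of the markers, Cr2 and Fcer2a, are described as Notch targets in B cells and fell with Notch2, the 250 bases before their start sites are shown, from RefSeq on GRCm38.p6, the assembly called mm10 in the files. Capitals mark the letters TGGGAA or, on the other strand, TTCCCA, the core that RBPJ binds. The Cr2 window is chr1:195176720-195176969 and the Fcer2a window chr8:3690862-3691111, both on the minus strand and written 5′ to 3′; the latter belongs to the second of 3 start sites listed for Fcer2a, the only one with more than 1 match. The first of them, next to the gene's start in the count table, holds 0 matches and the third holds 1.
Cr2 promoter: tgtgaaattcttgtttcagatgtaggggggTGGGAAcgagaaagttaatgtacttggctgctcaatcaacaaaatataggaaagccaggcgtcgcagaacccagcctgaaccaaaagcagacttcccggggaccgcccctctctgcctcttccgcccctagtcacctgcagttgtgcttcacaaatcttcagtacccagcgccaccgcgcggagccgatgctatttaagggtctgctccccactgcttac
Fcer2a promoter 2: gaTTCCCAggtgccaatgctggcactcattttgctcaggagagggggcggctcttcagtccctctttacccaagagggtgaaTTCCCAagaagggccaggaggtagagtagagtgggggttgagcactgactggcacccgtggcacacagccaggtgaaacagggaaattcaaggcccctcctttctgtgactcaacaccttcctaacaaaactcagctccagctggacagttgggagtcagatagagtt
The Cr2 match begins 220 bases before the start site, and those of Fcer2a 248 and 168 bases before it. Promoters were listed for 8 of the 10 markers (not for Cd1d1 and Cd93), and 3 of the 8 (Cr2, Fcer2a and Cd9) held a match in at least 1 window. In all, 4 of 11 windows of the markers held the letters, and so did 21.6% of 32851 windows over all genes. None lies in the window listed for Dtx1, which says only that these letters are not in it. A match is a description of the sequence and not a sign of binding.

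Among the marginal zone markers, Cr2 and Cd1d1 fell strongly in both genotypes and Cd9 did not. Cr2 encodes the complement receptors CD21 and CD35, which bind antigen tagged with complement and so lower the threshold of the B-cell receptor (chr1:195136811-195176715, minus strand). It was counted at 19499 reads or 798 CPM in resting ΔleftPAL cells and 4834 reads or 179 CPM after LPS, and at 14966 reads or 515 CPM in resting ΔIRIS cells and 2515 reads or 85.8 CPM after LPS. The LPS cultures thus held 22.5% and 16.7% of the resting level, log2 ratios of -2.15 (-2.20 to -2.11) and -2.58 (-2.65 to -2.52), or -1.39 and -2.20 with the B cell gene scaling. Both ΔIRIS values lay below the matching ΔleftPAL values. Cr2 is also made by follicular dendritic cells, and 5 genes of these and related stromal cells summed to 9.70, 3.56, 14.2 and 2.53 CPM, in the order given for Dtx1, with Pdpn at 0 reads throughout and Cxcl13 at 0 after LPS. The part of these cells in the Cr2 values was not tested.

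Cd1d1 encodes CD1d, which shows lipids to NKT cells (chr3:86995834-86999441, minus strand). It had 1476 reads or 60.4 CPM in resting ΔleftPAL cells and 212 reads or 7.87 CPM after LPS, and 1145 reads or 39.4 CPM in resting ΔIRIS cells and 150 reads or 5.12 CPM after LPS. This was the largest fall of any of the 10 markers in each genotype, with a log2 ratio of -2.94 in both (-3.16 to -2.73 and -3.20 to -2.70), or -2.18 and -2.56 with the B cell gene scaling. The near-identical neighbour Cd1d2 had 44, 26, 41 and 5 reads, and since multi-mapped reads were counted, reads shared by both copies leave Cd1d1 less certain in LPS ΔleftPAL cells (26 beside 212 reads) than in the other 3 libraries. Psap, whose products load lipids onto CD1d, fell as well, with log2 ratios of -1.63 and -1.81, and the light chain gene B2m had -0.44 and -0.73, within 2-fold.

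Cd9 encodes a tetraspanin, a scaffold protein of the cell surface found on marginal zone and B1 cells and on plasma cell precursors (chr6:125460266-125494791, minus strand). Its reads numbered 447 in resting ΔleftPAL, 533 in LPS ΔleftPAL, 842 in resting ΔIRIS and 440 in LPS ΔIRIS cells, or 18.3, 19.8, 29.0 and 15.0 CPM. The highest library was resting ΔIRIS and the other 3 lay close together. The log2 ratio of LPS over resting was 0.11 (-0.07 to 0.30) in ΔleftPAL cells, not detectable at this depth, and -0.95 (-1.12 to -0.78) in ΔIRIS cells. By TPM these ratios were -0.28 and -1.17, and with the B cell gene scaling 0.88 and -0.56, so that the sign in ΔleftPAL cells depends on the table. Cd9 is abundant in platelets and megakaryocytes, and 5 genes of those cells summed to 12 CPM in resting ΔleftPAL, 1.41 in LPS ΔleftPAL, 32.5 in resting ΔIRIS and 0.409 in LPS ΔIRIS cells, the highest in the same library as Cd9. After LPS all 5 genes together had 38 and 12 reads, with Gp1ba and Gp9 at 0. The part of platelets in the Cd9 values, at rest or after LPS, was not tested. Of the tetraspanin list, 13 of 14 genes passed the minimum, 4 fell in both genotypes (among them Tspan33 with -2.35 and -4.42, and Cd37 with -1.68 and -1.18) and Tspan5 and Tspan31 rose in both, where 13.1% and 17.3% of all genes did.

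The other marginal zone genes mostly went with Cr2 and Cd1d1. Of 13 genes on the list, which includes Cr2, Cd1d1, Cd9, Dtx1 and Notch2, 9 fell in both genotypes and 2 rose, where 13.1% of all genes fell in both and 17.3% rose in both. Asb2, a subunit of a ubiquitin ligase, went from 1111 to 46 reads in ΔleftPAL cells and from 1149 to 5 reads in ΔIRIS cells. S1pr1, the sphingosine phosphate receptor that draws lymphocytes towards blood, fell with log2 ratios of -3.59 and -3.71, and Myof, a membrane repair protein, with -2.83 and -2.87. The 2 that rose, named after their values were seen, were Cd36, a scavenger receptor, from 1941 to 11381 and from 2898 to 12556 reads, and Mzb1, a chaperone for IgM assembly, from 1798 to 10024 and from 1433 to 8405 reads. Mzb1 is also on the plasmablast list, of whose 6 genes found 3 rose in both genotypes.

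Fcer2a encodes CD23, the low-affinity receptor for IgE that marks follicular cells (chr8:3681737-3694174, minus strand). It was counted at 6305 reads or 258 CPM in resting ΔleftPAL cells and 1935 reads or 71.8 CPM after LPS, and at 8159 reads or 281 CPM in resting ΔIRIS cells and 1579 reads or 53.9 CPM after LPS. The log2 ratio was -1.85 (-1.92 to -1.77) in ΔleftPAL and -2.38 (-2.46 to -2.30) in ΔIRIS cells, and with the B cell gene scaling 47.2% and 25.1% of the resting level remained, so the follicular marker fell beside the marginal zone marker Cr2 in each culture. Of 6 follicular genes, 5 fell in both genotypes and 0 rose, beside the same 13.1% and 17.3% of all genes. Klf2, a factor that keeps lymphocytes quiescent, had log2 ratios of -3.83 and -2.94, Itgb7, an integrin subunit, -2.84 and -2.88, and Ccr7, the receptor that leads cells to T-cell zones, -2.09 and -4.23.

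Genes whose pattern over the 4 libraries was nearest to that of both sorting markers were sought among 8956 genes averaging 200 counts or more, by the Euclidean distance of centred log2(CPM + 0.5) values. For Cr2 these were Inadl (distance 0.26, with 31.0, 6.42, 23.6 and 3.51 CPM in the order given for Dtx1), Rgs3 (0.30) and Dclk2 (0.37). For Fcer2a they were Myo10 (0.051, with 12.5, 3.12, 13.2 and 2.29 CPM), Fbxl12 (0.076) and Tcn2 (0.088). The pattern of Cr2 thus had no neighbour as close as those of Fcer2a, and 4 points are too few to tell more.

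The markers of maturation went different ways. Cd93 encodes the AA4.1 antigen of transitional cells, which returns on plasma cells (chr2:148436640-148443563, minus strand). It had 567 reads or 23.2 CPM in resting ΔleftPAL cells, 1164 reads or 43.2 CPM in LPS ΔleftPAL cells, 1242 reads or 42.7 CPM in resting ΔIRIS cells and 1335 reads or 45.5 CPM in LPS ΔIRIS cells. One library, resting ΔleftPAL, stood below the other 3, which were nearly level. The log2 ratio of LPS over resting was 0.90 (0.75 to 1.04) in ΔleftPAL cells, short of 2-fold, and 0.09 (-0.02 to 0.20) in ΔIRIS cells. With the B cell gene scaling it was 1.66 in ΔleftPAL cells, past 2-fold, and by TPM it was -0.20 in ΔIRIS cells, so neither the call nor the sign is settled. Cd93 is also made by myeloid and endothelial cells: the 7 myeloid genes were at 311 CPM in resting ΔleftPAL and 417 CPM in resting ΔIRIS cells, and 4 endothelial genes at 183 and 165 CPM, nearly all of it Pecam1, which B cells also transcribe. After LPS the myeloid sum was 7.31 and 16.5 CPM and the endothelial sum 80.6 and 73.6 CPM. The part of these cells in the Cd93 values, at rest or after LPS, was not tested.

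Vpreb3 encodes a surrogate light chain-like protein that stays in the endoplasmic reticulum of developing B cells (chr10:75943057-75949657, plus strand). It had 715, 210, 803 and 270 reads in resting ΔleftPAL, LPS ΔleftPAL, resting ΔIRIS and LPS ΔIRIS cells, or 29.3, 7.79, 27.6 and 9.21 CPM, and both LPS libraries lay below both resting ones. It fell with log2 ratios of -1.91 (-2.14 to -1.69) and -1.58 (-1.79 to -1.38), or -1.15 and -1.20 with the B cell gene scaling. Of 12 immature and transitional genes only 5 passed the minimum, and genes of early B-cell development such as Rag1, Rag2 and Dntt were among those that did not. Beside Vpreb3, Sox4 fell in both genotypes (-2.45 and -2.62), while Cd24a, the heat-stable antigen, rose from 12121 to 37578 and from 18010 to 46443 reads (1.49 and 1.35); of all genes 13.1% fell and 17.3% rose in both.

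Spn was the only one of the 10 markers that rose at least 2-fold in both cultures. It encodes CD43, a sialylated mucin absent from most resting B cells and present on B1 cells, plasmablasts and activated B cells (chr7:127132232-127137823, minus strand). The cells had been purified by removing those that carry CD43, and the part of this selection in the resting level was not tested. A difference between the resting libraries therefore cannot be read as one between the mice. It was counted at 537 reads or 22.0 CPM in resting ΔleftPAL cells and 1768 reads or 65.6 CPM after LPS, and at 364 reads or 12.5 CPM in resting ΔIRIS cells and 2205 reads or 75.2 CPM after LPS. The log2 ratios were 1.58 (1.44 to 1.72) and 2.59 (2.43 to 2.75), or 2.34 and 2.97 with the B cell gene scaling, and they start from selected cells. The LPS libraries, for which a gradient but no CD43 depletion was stated after the culture, differed by a log2 ratio of 0.20 (0.11 to 0.29). On the list of 6 B1 cell genes, of which 5 passed, Zbtb32, a transcriptional repressor, rose from 42 to 4366 and from 31 to 6349 reads, whereas Bhlhe40 fell (-2.09 and -3.59), so the list did not move as one. Cd5, the marker of B1a cells, did not pass the minimum.

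Ptprc encodes CD45, the receptor tyrosine phosphatase of all leukocytes that primes Src-family kinases, and its longest form is the B220 antigen of B cells (chr1:138063407-138175706, minus strand). It was counted at 38767 reads or 1587 CPM in resting ΔleftPAL cells and 21078 reads or 782 CPM after LPS, and at 47403 reads or 1631 CPM in resting ΔIRIS cells and 24043 reads or 820 CPM after LPS. The ratios were -1.02 (-1.04 to -0.996) and -0.99 (-1.01 to -0.97), on either side of the 2-fold line, and the call, made only in ΔleftPAL cells, depends on the scaling. In ΔIRIS cells Ptprc passed 2-fold with total counts (-1.03), DESeq2 size factors (-1.02), TMM without immunoglobulin genes (-1.01) and TPM (-1.17), and with kallisto estimated counts neither genotype passed (-0.90 and -0.83). Its level was near 50% of the resting one in both genotypes, at 49.3% and 50.3%, while the log2 ratios of the 6 B cell genes ran from -1.49 to -0.34 in ΔleftPAL and from -1.66 to 0.0015 in ΔIRIS cells. With the B cell gene scaling the ratios were -0.26 and -0.61. Of 7 kinases and counterparts of CD45 on the list, Pag1, the anchor of the inhibitory kinase Csk, and Blk, a Src-family kinase of B cells, fell in both genotypes (-1.45 and -1.41, and -1.48 and -1.39), as did 13.1% of all genes.

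The Ptprc transcripts differ by 3 exons that are skipped or kept by alternative splicing. The exons A, B and C code for a stretch of the outer domain rich in serine and threonine, to which O-linked sugars are attached. They are shown because the transcripts counted below are told apart by them. They come from GENCODE release M21 on GRCm38, minus strand, 5′ to 3′, and capitals mark the codons for serine and threonine that lie whole within the exon.
Exon A: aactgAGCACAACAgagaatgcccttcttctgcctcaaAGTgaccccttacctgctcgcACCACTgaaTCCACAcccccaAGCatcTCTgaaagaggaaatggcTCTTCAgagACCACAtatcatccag
Exon B: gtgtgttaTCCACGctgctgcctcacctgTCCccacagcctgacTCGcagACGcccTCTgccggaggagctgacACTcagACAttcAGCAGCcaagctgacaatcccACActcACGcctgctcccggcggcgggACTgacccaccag
Exon C: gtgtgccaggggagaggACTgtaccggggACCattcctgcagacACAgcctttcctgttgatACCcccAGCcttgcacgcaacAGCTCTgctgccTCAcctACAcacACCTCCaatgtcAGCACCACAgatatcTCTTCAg
Exon A lies at chr1:138122456-138122584 (exon 4 of the longest transcript, 129 bases), exon B at chr1:138120020-138120166 (exon 5, 147 bases) and exon C at chr1:138117754-138117894 (exon 6, 141 bases). Each is a multiple of 3 bases long, so skipping it keeps the reading frame. Together they add 139 residues, and 43 of their 136 whole codons (31.6%) are for serine or threonine, against 15.4% over the whole coding sequence of the longest transcript. The next exon, exon 7 (chr1:138116954-138117025, 72 bases), also lies in frame, with 11 of 23 whole codons of this kind.

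The table holds 3 full-length coding transcripts of Ptprc: Ptprc-207 with A, B and C, Ptprc-203 with none of them, and Ptprc-204, which lacks exon 7 as well. No full-length transcript with B alone or with B and C is listed, so reads of such forms would be shared out among those listed, and the tables give no error. Ptprc-207, the B220 form, was at 257 TPM in resting ΔleftPAL and 139 TPM in LPS ΔleftPAL cells, and at 223 TPM in resting ΔIRIS and 139 TPM in LPS ΔIRIS cells. Ptprc-203 was at 68.5 TPM in resting ΔleftPAL and 6.10 TPM in LPS ΔleftPAL cells, and at 127 TPM in resting ΔIRIS and 9.02 TPM in LPS ΔIRIS cells. The short form was thus lower by a larger factor than the long form in both cultures. Its share among the 3 was 20.8% at rest and 4.18% after LPS in ΔleftPAL cells and 35.5% and 5.99% in ΔIRIS cells, both LPS values below both resting ones. The share of Ptprc-207 was 78.2% and 95.4% in ΔleftPAL and 62.4% and 92.5% in ΔIRIS cells, and Ptprc-204 stayed between 0.419% and 2.10%. Retained-intron transcripts made up 18.7%, 12.6%, 13.9% and 11.6% of the estimated counts of the gene, in the order given for Dtx1. By TPM these shares were 27.7%, 25.5%, 22.2% and 23.3%, so in ΔIRIS cells the direction after LPS depends on the unit.

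T cells and myeloid cells make short CD45 forms, and the sums of their listed genes were also lower after LPS. The myeloid gene Itgam went the other way in ΔIRIS cells, from 304 to 450 reads (log2 ratio 0.55, 0.34 to 0.77). Most T cells and myeloid cells carry CD43, against which the splenocytes were depleted. The 8 T-cell genes summed to 138 and 142 CPM at rest and 28.6 and 27.8 CPM after LPS. Most of it was Cd2, at 114 CPM in each resting library and 26.8 and 26.7 CPM after LPS. The part of B cells in Cd2 was not tested, so the sum cannot be read as T cells alone. Cd3e, Cd3d and Cd3g were at 0 after LPS, and the myeloid sums are given above. Between the resting libraries the myeloid sum and the Ptprc-203 share were both higher in ΔIRIS cells. The genes of neither list went one way there. Of the myeloid genes, Csf1r (4127 and 6532 reads in ΔleftPAL and ΔIRIS cells), Lyz2 (2374 and 4322), Fcer1g and Cd14 were higher in CPM in ΔIRIS cells, and Itgam (321 and 304), S100a8 (86 and 20) and S100a9 (128 and 24) lower. Of the T-cell genes, Cd4 (273 and 496 reads) and Cd8a (3.44 and 6.95 CPM) were higher, Cd2 was level (2790 and 3327), and Cd3e (17 and 5), Cd3d (47 and 18), Cd3g (50 and 11), Lat and Thy1 were lower. The part of these cells in the shares was not tested. Of 5 splicing regulators of the CD45 exons, only Ptbp1 rose in both genotypes (1.26 and 1.16), a share near the 17.3% of all genes that did. Hnrnpll, which favours skipping of the variable exons and was named after its values were seen, had 98, 190, 179 and 100 reads, with log2 ratios of 0.81 (0.45 to 1.18) and -0.85 (-1.22 to -0.49), both within 2-fold.

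**Figure D4:**
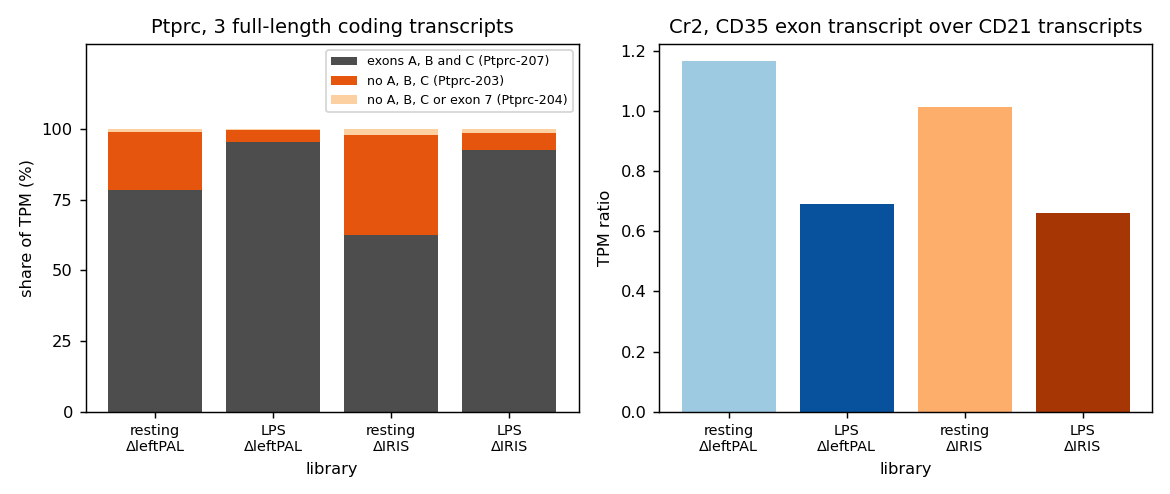
Left, share of TPM (%) of the 3 full-length coding Ptprc transcripts in each library; right, TPM of the Cr2 transcript made of CD35 exons divided by that of both CD21 transcripts (bars start at 0; 1 library each, no error available). The transcript without exons A, B and C takes 20.8% and 35.5% at rest and 4.18% and 5.99% after LPS, and the Cr2 ratio is 1.17 and 1.01 at rest and 0.691 and 0.661 after LPS.

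In the mouse a single gene, Cr2, gives CD21 and, with further exons at the 5′ side, the longer CD35. In GENCODE M21 these further exons, 7 in number and 1128 bases in all, lie between chr1:195165039 and chr1:195171170 and are joined to the rest in a full CD35 transcript, which is not among those quantified by the authors. What is listed is a transcript of 1044 bases that consists nearly whole of CD35 exons, and a pair of long CD21 transcripts of 6207 and 6212 bases. The CD35-exon transcript was at 122 TPM in resting and 14.1 TPM in LPS ΔleftPAL cells and at 66.9 TPM in resting and 6.41 TPM in LPS ΔIRIS cells. The CD21 transcripts together were at 105 and 20.5 TPM in ΔleftPAL and 66.1 and 9.70 TPM in ΔIRIS cells. The ratio of the former to the latter was 1.17 and 0.691 in ΔleftPAL and 1.01 and 0.661 in ΔIRIS cells, lower after LPS in both genotypes. By estimated counts the ratio was 0.163 and 0.0970 in ΔleftPAL and 0.142 and 0.0924 in ΔIRIS cells, also lower after LPS. Transcripts with CD35 exons took 15.8%, 11.2%, 14.4% and 9.60% of the estimated counts of the gene, in the order given for Dtx1. By TPM they took 47.7%, 39.8%, 45.7% and 33.9%. Reads of a CD35 transcript that lie in exons shared with CD21 are given to CD21 by such a table, so these are not levels of both receptors.

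The 6212-base CD21 transcript starts 1 base earlier than the other and runs on for 4 bases at the end of exon 15. The last 30 bases of the longer exon (chr1:195151568-195151597, minus strand) are shown with those 4 in capitals.
Cr2 exon 15 end: ccctcccttggctctttgcaaataccGTAG
The share of the 6212-base transcript was 38.4% at rest and 28.1% after LPS in ΔleftPAL cells, whereas ΔIRIS cells had 29.3% before and 37.6% after the culture. It went down in one genotype and up in the other, with no error to judge either by.

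The ΔIRIS and ΔleftPAL libraries differed less than resting and LPS libraries did. At rest 0 of the 10 markers were called, against 1.83% of all genes higher and 1.02% lower in ΔIRIS cells. The marker median was -0.12 and that of all genes 0.00019. The marginal zone genes Cr2 and Cd1d1 had log2 ratios of ΔIRIS over ΔleftPAL of -0.63 (-0.66 to -0.60) and -0.62 (-0.73 to -0.51), Dtx1 had -0.49 (-0.56 to -0.42) and Notch2 -0.15 (-0.19 to -0.11), the latter turning to 0.11 with the B cell gene scaling. Cd9, by contrast, was at 0.66 (0.50 to 0.83), Cd93 at 0.88 (0.74 to 1.03) and Fcer2a at 0.12 (0.07 to 0.17). With the B cell gene scaling Cd93 was at 1.14 and was called, and Cd9 was at 0.92. By the same scaling Cr2 was at -0.37 and Cd1d1 at -0.36, and the median of all genes was 0.25. Vpreb3 was at -0.08 (-0.23 to 0.06), or 0.18 with the B cell gene scaling, and Ptprc was at 0.039 (0.019 to 0.058), or -0.070 by TPM. Spn, whose protein the cells were selected against, was at -0.81 (-1.01 to -0.62). These intervals leave out the spread between mice, which may be larger than the differences. Of the 13 marginal zone genes, 10 lay below 0 and 3 above, with a median of -0.34. The 1 that was called was S1pr3, another sphingosine phosphate receptor, with 954 reads in ΔleftPAL and 550 in ΔIRIS cells (-1.05, -1.20 to -0.89). Of 6 follicular genes, 4 lay below 0 and 2 above, and Ccr7 was called, with 3639 and 15720 reads (1.86, 1.81 to 1.91). S1pr3 is named after its value was seen. The B cell gene scaling gave higher ratios between the resting libraries, and neither list was recounted with it. How far these list counts and the call of S1pr3 depend on the scaling was therefore not tested.

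After LPS, 1 of the 10 markers was called, against 0.567% of all genes higher and 1.41% lower in ΔIRIS cells. It was Cr2, with 179 CPM in ΔleftPAL and 85.8 CPM in ΔIRIS cells, a log2 ratio of -1.06 (-1.13 to -0.99), or 2.09-fold lower. With kallisto estimated counts the ratio was -0.996 and the call was lost. Cd1d1 had -0.62 (-0.93 to -0.31), Fcer2a -0.41 (-0.51 to -0.32), Cd9 -0.40 (-0.58 to -0.21), Notch2 -0.26 (-0.32 to -0.20) and Dtx1 -0.14 (-0.24 to -0.05). By TPM the ratio of Cd1d1 was -1.05, past 2-fold. Cd93 (0.08, -0.04 to 0.19, or -0.043 with the B cell gene scaling) and Vpreb3 (0.24, -0.02 to 0.51) showed no difference detectable at this depth, and Ptprc had 0.068 (0.041 to 0.095), which was -0.046 by TPM and -0.051 with the B cell gene scaling. The median of the markers was -0.20, and that of all genes 0.026.

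The LPS change of each marker was then compared between the genotypes, as the log2 ratio in ΔIRIS minus that in ΔleftPAL cells, with Wald 95% intervals from the counts. Of the 10 markers 1 was called, against 1.45% of all genes with a higher and 3.6% with a lower change in ΔIRIS cells. This was Cd9, at -1.06 (-1.31 to -0.81), and the call was lost with kallisto estimated counts, by TPM and with a prior of 5 CPM, while with total counts Spn was called in its place. Spn followed at 1.01 (0.80 to 1.22) in plain reads and was not called with 0.5 CPM added, at 0.98. The values of Cd93 (-0.80, -0.99 to -0.62), Fcer2a (-0.54, -0.64 to -0.43), Cr2 (-0.43, -0.51 to -0.36) and Notch2 (-0.11, -0.18 to -0.04) were negative, and those of Dtx1 (0.34, 0.23 to 0.46) and Vpreb3 (0.32, 0.03 to 0.62) positive, but both turned with the B cell gene scaling, to -0.035 and -0.054. For Cd1d1 (-0.0032, -0.32 to 0.32) and Ptprc (0.029, -0.0037 to 0.062) the intervals included 0, while with the B cell gene scaling the values were -0.38 and -0.35, outside those intervals. Each of these values rests on all 4 libraries, and a single library can set it: for Cd93 and Cd9 it is the resting library, ΔleftPAL and ΔIRIS respectively, that lies apart from the other 3.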

How the data were processed

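RNA of CD43-depleted splenic B cells was sequenced as stranded, ribosomal RNA-depleted, paired 150-nt libraries. The authors mapped the reads with STAR 2.4.0a to mm10 (GRCm38) with the Ensembl 77 gene model and deposited raw counts per gene name from featureCounts (Subread 1.4.6-p1), counting primary alignments, multi-mapped reads included. The authors also deposited kallisto 0.42.3 estimated counts and TPM for 88198 transcripts, both unnormalized beyond kallisto's own length scaling; the index and settings are not given in the sources used here. The kit marks strand and the stated counting setting is the forward one, yet the gene counts of the markers were 0.903 to 1.05 times the kallisto estimated counts, so they were not taken from the opposite strand. A row without a gene name, 0.00876% to 0.0264% of counts, was left out.

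The members and gene lists were chosen with earlier results of these data known. Groups came from the labels, 1 library each, so no comparison within a genotype or a time has residual degrees of freedom and no p-value was computed; edgeR's quasi-likelihood test of an LPS effect common to both genotypes was not run. Counts were scaled with TMM factors (0.970 to 1.03; edgeR 4.0.16, R 4.3.3). Ratios of all genes used CPM + 0.5, which understates low genes, over genes whose counts averaged 50 or more, and a gene was called at 2-fold. Ratios of single genes used plain reads with exact 95% intervals (Python 3.11.15, scipy 1.17.1), for counting error only. PCR copies are not independent molecules. The procedure was tested on simulated counts that held counting error only, so that test cannot speak to the spread between mice or cultures. Estimated counts were summed per gene for an alternative. All 10 markers are named; of each pathway list, the genes called in both genotypes (the 4 with the largest smaller change) and the 2 with most reads may be named; any other list gene, and each gene named from a cell type marker list, was chosen after its values were seen. Other settings tried were size factors of DESeq2 1.42.0, total counts, TMM without immunoglobulin genes, estimated counts, TPM, other count minimums (10 or none) and a prior of 5 CPM. TMM without erythroid genes and scaling by the reads of Cd79a, Cd79b, Ms4a1, Pax5 and Cd22 were added after seeing the data. The result of 1 further B cell gene is not reported here.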

Additional observations from a re-analysis of the deposited data

Results flagged for a closer look

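The log2 ratio of Cd9, LPS over resting, had opposite signs in the 2 genotypes: it was 0.11 in ΔleftPAL and -0.95 in ΔIRIS cells, a difference of -1.06. With 1 library per group this difference was not tested, and in ΔleftPAL cells the interval of the ratio, -0.07 to 0.30, includes 0, so that no movement was detectable there. By TPM both ratios were negative, at -0.28 and -1.17.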

How the results depend on the processing

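Each of the 40 log2 ratios of the markers was recomputed under 7 other scalings or tables, 280 values in all. Of these, 190 stayed within the counting interval of the reported value and 90 lay outside it; 8 changed sign and 16 crossed the 2-fold line. The median of all genes, 0.12 and 0.13 after LPS in ΔleftPAL and ΔIRIS cells, was -0.27 and -0.26 by TPM and 0.85 and 0.50 with the B cell gene scaling. With kallisto estimated counts the markers called between the LPS libraries numbered 0 in place of 1, and those whose change with LPS differed between the genotypes numbered 0 in place of 1; the latter count was also 0 by TPM and with a prior of 5 CPM. With the B cell gene scaling it was 2 (8.56% of all genes, 5.05% as reported), and between the resting libraries 1 marker (Cd93) was called in place of 0 (4.21% of all genes, 2.85% as reported). With total counts it stayed at 1, but the gene was Spn and not Cd9. The counts of markers called after LPS were 6 to 8 of 10 in ΔleftPAL and 5 to 9 in ΔIRIS cells, beside 12.1% to 51.6% and 13.3% to 44.2% of all genes; the highest of these shares came with the B cell gene scaling, where 6 and 5 markers were called. The share of Ptprc-203 by estimated counts was 19.6% at rest and 3.88% after LPS in ΔleftPAL cells, whereas ΔIRIS cells had 33.7% before and 5.57% after the culture. The cause of these shifts was not tested. The labels give no replicate numbers that could pair libraries, and a fit of LPS with genotype as a block was not run. Depth limits Cd1d2, with 5 reads in LPS ΔIRIS cells, more than any of the 10 markers, which had at least 150 reads.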
